A study of Arabidopsis thaliana with 6 samples.

Results

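The conserved microRNA genes of *Arabidopsis thaliana* were examined for binding by TT1 and NTT, which are WIP zinc finger transcription factors. The genes were those of the TAIR10.1 annotation with the symbol *MIR* and the number of a family held to be conserved among plants, namely *MIR156*, *MIR157*, *MIR159*, *MIR160*, *MIR162*, *MIR164* to *MIR169*, *MIR171*, *MIR172*, *MIR319*, *MIR390*, *MIR391*, *MIR393* to *MIR399*, *MIR403* and *MIR408*, with any letter. They numbered 93, in 25 families, of 37899 nuclear genes and beside 233 other microRNA genes. A gene was called bound in a library when a deposited peak had its summit, the position of strongest enrichment, between 2 kb upstream of the annotated 5′ end and the end of the gene. The annotated gene is the stem-loop precursor, so its 5′ end is not the start of transcription. These genes are short, from 68 to 411 bp with a median of 124 bp, against a median of 2078 bp for protein-coding genes.

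Seedlings of accession Col-0 that carried either *Dex:TT1-GFP* or *Dex:NTT-GFP* were used for ChIP-seq, with GFP as the target of the antibody. Both lines were 7 days old, were held for 8 h in medium with 1 µM dexamethasone (Dex), and differed in the WIP protein fused to GFP. There was 1 ChIP library of TT1-GFP, and 2 of NTT-GFP from separately treated pools, here NTT rep1 and NTT rep2, each with an input library. The fusion genes were under an inducible promoter switched on by an activator that a constitutive viral promoter drives, so the proteins were present ectopically in whole seedlings, pooled over their tissues. The peak lists held 12908 peaks for TT1, 16167 for NTT rep1 and 7447 for NTT rep2. Fold enrichment, which divides the ChIP signal at a summit by the local background, had a median of 3.99 in TT1, 5.90 in NTT rep1 and 3.94 in NTT rep2. The number of reads per library is unknown, so that values were ranked within a library, and at genes with no peak binding was not detectable at this depth. No TT1 value has a replicate error, and the inputs have no peak list of their own.

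MicroRNA genes are transcribed into primary transcripts that fold into stem-loops, which DCL1 and its partners cut into short duplexes. A strand of the duplex is loaded into an ARGONAUTE protein and guides it to messenger RNAs of matching sequence. The conserved families mostly target transcription factors of growth and flowering, receptors of auxin, and enzymes and transporters of copper, sulfate and phosphate nutrition.

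The mature microRNAs of the 10 genes bound in all 3 libraries are printed as read from the TAIR10.1 genome at the annotated positions, 5′ to 3′, with the seed (bases 2 to 8) in capitals. They are the products of the genes with a peak in the window in every library. Which gene these peaks act on was not tested, and at *MIR391* and *MIR398b* a coding start was nearer to some summits.
miR156c-5p: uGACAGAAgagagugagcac
miR159a: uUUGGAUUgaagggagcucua
miR159b-3p: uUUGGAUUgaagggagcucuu
miR166a-3p: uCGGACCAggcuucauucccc
miR167a-5p: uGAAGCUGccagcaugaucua
miR168a-5p: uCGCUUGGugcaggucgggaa
miR168b-5p: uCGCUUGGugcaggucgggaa
miR391-5p: uUCGCAGGagagauagcgcca
miR398b-3p: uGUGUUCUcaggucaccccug
miR408-3p: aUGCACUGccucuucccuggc
miR168a-5p and miR168b-5p have the same sequence, and both genes that make it were bound in all 3 libraries. The seed UUGGAUU is carried by the 3 *MIR159* genes, all of them bound in at least 1 library and 2 of them in all 3. GACAGAA, the seed of miR156c-5p, is carried by 11 genes, of which 4 were bound in any library and 1 in all 3. CGGACCA, the seed of miR166a-3p, is shared by 9 *MIR165* and *MIR166* genes, 5 of which were bound in any library and 1 in all 3. Genes that make the same or nearly the same microRNA therefore differed in whether a peak was found.

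Stretches of 101 bp centred on the summits of related genes are shown because paralogs had peaks, in some libraries, over the same words of sequence. They are written on the strand of the microRNA gene, in TAIR10.1 coordinates, with runs of 9 or more bases found in the stretch of the other gene in capitals.
*MIR159a*, NTT rep1, chr1:27713783-27713883, minus strand: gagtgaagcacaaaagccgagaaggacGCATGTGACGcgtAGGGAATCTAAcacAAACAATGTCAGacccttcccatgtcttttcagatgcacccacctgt
*MIR159b*, NTT rep1, chr1:6219512-6219612, plus strand: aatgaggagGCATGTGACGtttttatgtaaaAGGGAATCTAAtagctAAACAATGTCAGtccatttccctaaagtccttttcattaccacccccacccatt
*MIR166a*, TT1, chr2:19175829-19175929, plus strand: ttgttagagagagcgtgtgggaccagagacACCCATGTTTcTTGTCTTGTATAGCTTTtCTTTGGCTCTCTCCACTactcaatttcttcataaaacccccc
*MIR166b*, TT1, chr3:22921882-22921982, plus strand: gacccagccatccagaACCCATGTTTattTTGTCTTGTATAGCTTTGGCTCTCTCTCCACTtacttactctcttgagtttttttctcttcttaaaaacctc
*MIR393a*, TT1, chr2:16651487-16651587, plus strand: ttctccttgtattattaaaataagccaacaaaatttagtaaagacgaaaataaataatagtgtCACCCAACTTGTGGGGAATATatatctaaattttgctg
*MIR393b*, NTT rep1, chr3:20690480-20690580, plus strand: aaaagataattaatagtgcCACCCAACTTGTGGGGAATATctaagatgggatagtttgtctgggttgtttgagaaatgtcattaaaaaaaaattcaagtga
The 2 *MIR159* stretches had 33 bases each in capitals, in 3 words that stood in the same order. In the *MIR166* stretches 44 and 42 bases were in capitals, and the *MIR393* stretches shared a single run of 21 bases, under a TT1 peak at *MIR393a* and under NTT peaks at *MIR393b*. The NTT rep1 peak at *MIR393a*, chr2:16650998-16651262 with a fold enrichment of 7.13, did not cover that run.

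A further set of 101 bp stretches shows the words searched for at summits on both strands, with matching letters in capitals. The GAGA repeat was written GAGAGAG. The ABRE core was ACGTG, which is also part of the G-box, CACGTG. For the W-box, TTGACC was searched, and so was TTGACT.
*MIR156c*, NTT rep1, chr4:15415892-15415992, minus strand: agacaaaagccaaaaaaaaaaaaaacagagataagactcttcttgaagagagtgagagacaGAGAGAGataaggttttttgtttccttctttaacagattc
*MIR168a*, NTT rep1, chr4:10578420-10578520, plus strand: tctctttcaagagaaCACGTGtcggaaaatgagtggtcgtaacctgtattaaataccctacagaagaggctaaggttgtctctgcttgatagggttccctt
*MIR168b*, TT1, chr5:18359125-18359225, minus strand: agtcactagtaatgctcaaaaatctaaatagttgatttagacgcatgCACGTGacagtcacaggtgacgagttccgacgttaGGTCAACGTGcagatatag
*MIR168b*, NTT rep1, chr5:18358883-18358983, minus strand: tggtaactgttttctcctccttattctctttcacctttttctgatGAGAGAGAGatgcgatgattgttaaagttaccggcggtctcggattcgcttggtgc
*MIR319c*, TT1, chr2:17028214-17028314, plus strand: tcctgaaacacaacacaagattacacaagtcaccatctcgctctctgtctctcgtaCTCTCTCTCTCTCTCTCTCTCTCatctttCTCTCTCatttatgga
The *MIR156c* stretch holds a GAGA repeat, and that of *MIR319c* holds a long run of overlapping ones on the other strand. *MIR168a* has a G-box near its NTT summit, and *MIR168b* has a G-box and a W-box near its TT1 summit.

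TT1 had a peak at 25 of the 93 genes (26.9%), against 32.6% of all nuclear genes by the same rule. NTT rep1 had peaks at 29 (31.2%), against 37.8% of all nuclear genes, and NTT rep2 at 16 (17.2%), against 22.5%. Both NTT libraries had peaks at 14 of the genes (15.1%), against 20.4% of nuclear genes, and all 3 libraries at 10 (10.8%), against 17.0%. Each share lay below that of all genes. Because long genes offer more room for a summit within the gene, the 2 kb upstream were also counted alone. By that count 25 of the genes were bound by TT1 (26.9%), against 23.7% of nuclear genes, 29 in NTT rep1 (31.2%), against 26.1%, and 15 in NTT rep2 (16.1%), against 14.1%. Both NTT libraries bound 13 of the 93, against 12.1% of nuclear genes, and all 3 libraries 9 (9.68%), against 10.0%. Protein-coding genes stood at 27.4% in TT1, 29.9% in NTT rep1, 16.3% in NTT rep2 and 11.6% in all 3 by the upstream count, so the shares of the conserved genes were near the background, above or below it according to the library and the genes they are set against. They were above those of the 233 other microRNA genes by both counts, as in the TT1 library with 26.9% against 15.9% and in NTT rep1 with 31.2% against 19.7% over the whole window. These differences were not tested, since genes were chosen by family. The windows of 19 genes overlap that of another member, but no peak was counted for more than 1 of them.

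**Figure D1:**
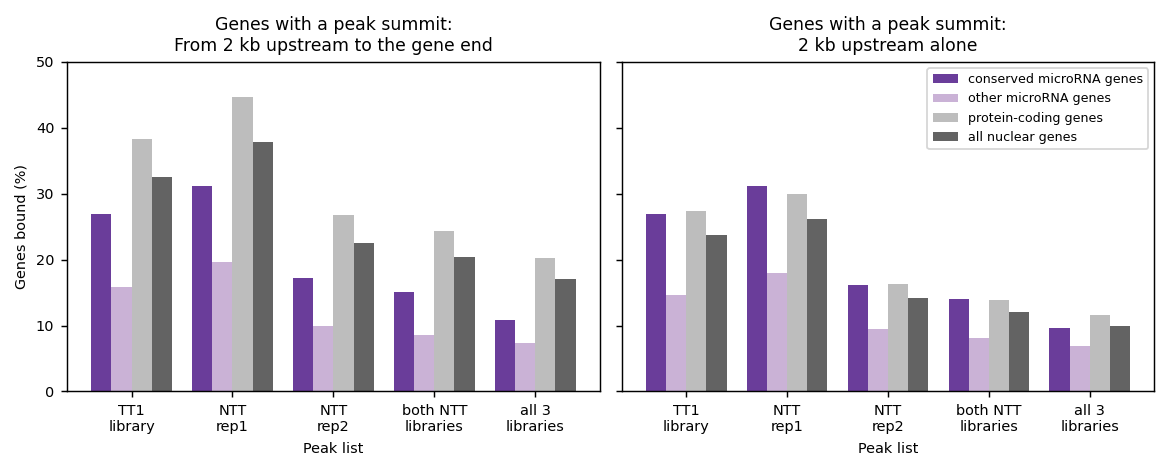
Percentage of genes bound (vertical axis) in each peak list and combination of lists, for the 93 conserved microRNA genes, the 233 other microRNA genes, protein-coding genes and all nuclear genes. With the gene body counted (left) the conserved genes stand at 26.9% for TT1 against 32.6% of all nuclear genes, and with the 2 kb upstream alone (right) at 26.9% against 23.7%.

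Over the 3 lists, 36 of the 93 genes were bound in any library (38.7%), against 44.4% of all nuclear genes, and 57 in none (61.3%), against 55.6%. Besides the 10 bound in all 3 libraries, 14 were bound in exactly 2 (15.1%), against 14.6% of nuclear genes, and 12 in exactly 1 (12.9%), against 12.8%. The *MIR159*, *MIR164*, *MIR168*, *MIR393* and *MIR398* families had every member bound in at least 1 library, as had the single genes *MIR391* and *MIR408*. Among the larger families, *MIR169*, whose microRNAs target subunits of the NF-Y transcription factor, had 2 of 14 members bound, *MIR395*, of the sulfate response, 1 of 6, and *MIR156* 3 of 10. No peak was found at any of the 20 members of 8 families, *MIR162a* and *MIR162b*, *MIR165a* and *MIR165b*, *MIR171a* to *MIR171c*, *MIR390a* and *MIR390b*, *MIR394a* and *MIR394b*, *MIR397a* and *MIR397b*, *MIR399a* to *MIR399f*, and *MIR403*. miR162 targets *DCL1*, miR399 the phosphate regulator *PHO2*, miR390 the *TAS3* transcripts that give trans-acting siRNAs, and miR403 *AGO2*. In the median window of both the bound and the unbound genes, every 50-base word was found once in the genome, a measure of where reads can be placed. The share of such words was under 90% in 1 of the 36 bound and 2 of the 57 unbound genes.

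**Figure D2:**
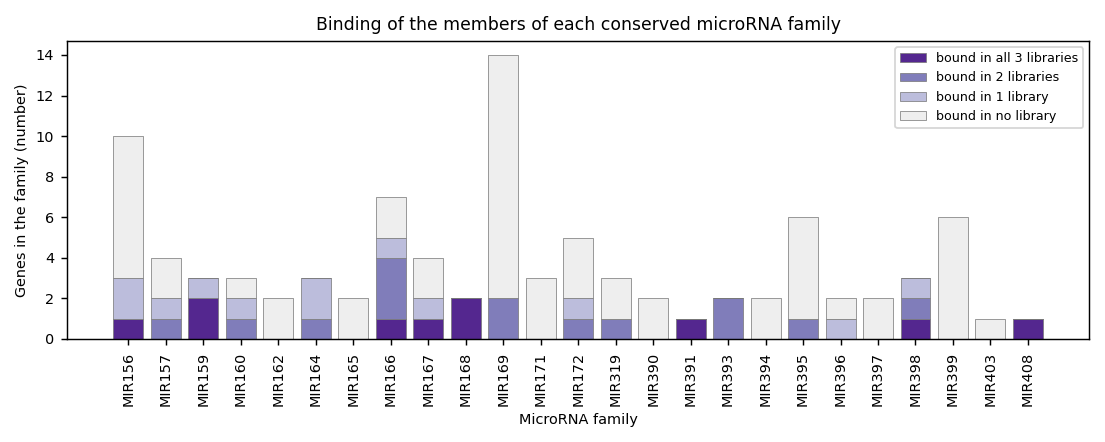
Number of genes in each of the 25 families (vertical axis), coloured by the number of ChIP libraries in which a gene was bound. *MIR168* had both members bound in all 3 libraries, *MIR169* had 2 of 14 members bound, and 8 families had no bound member.

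The genes bound in all 3 libraries include both sources of miR168, which targets *AGO1*, the main ARGONAUTE of the microRNA pathway. *MIR168a* (AT4G19395, chr4:10578635-10578772, plus strand) showed a fold enrichment of 5.23 in TT1, 6.83 in NTT rep1 and 4.54 in NTT rep2, with summits from 59 bp upstream of the stem-loop in TT1 to 185 bp upstream in NTT rep2. *MIR168b* (AT5G45307, chr5:18358788-18358911, minus strand) showed a fold enrichment of 4.64 in TT1, 6.74 in NTT rep1 and 4.36 in NTT rep2. Its TT1 summit lay 264 bp upstream, and its NTT summits lay at the stem-loop itself, 22 bp upstream in rep1 and 9 bp inside it in rep2. At both genes the NTT summits were close together, 20 bp apart at *MIR168a* and 31 bp apart at *MIR168b*, while TT1 and NTT rep1 were 106 and 242 bp apart. The fold enrichments of the 2 genes stood between percentiles 63.5 and 78.0 of the peaks of each library.

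miR159 targets *MYB33* and *MYB65*, activators of the gibberellin response. *MIR159a* (AT1G73687, chr1:27713233-27713416, minus strand) showed a fold enrichment of 5.18 in TT1, 9.66 in NTT rep1 and 6.57 in NTT rep2, with summits 443, 417 and 404 bp upstream. The last of these stood at percentile 98.3 of its library, the highest rank of any member there. A further peak 1620 bp upstream in TT1 and 1619 bp upstream in NTT rep1 lay inside the neighbouring gene *CDKD1;1*, a kinase gene whose start was nearer. NTT rep2 had further weaker peaks 686 and 1210 bp upstream, with fold enrichments of 3.37 and 3.89. The *CDKD1;1* start was nearer to the one at 1210 bp. *MIR159b* (AT1G18075, chr1:6220646-6220841, plus strand) showed a fold enrichment of 5.05 in TT1, 6.03 in NTT rep1 and 4.84 in NTT rep2, with summits 1078, 1084 and 1115 bp upstream. It was the bound gene with the lowest share of unique 50-base words, 84.6%. *MIR159c* was bound in the TT1 library alone, with a fold enrichment of 3.22 at a summit 1456 bp upstream and inside AT2G46250. The shared words GCATGTGACG, AGGGAATCTAA and AAACAATGTCAG thus lay under the summits of *MIR159a* and *MIR159b* at different distances from their stem-loops.

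miR156 targets the *SPL* transcription factors that promote the change from juvenile to adult growth. *MIR156c* (AT4G31877, chr4:15415418-15415521, minus strand) showed a fold enrichment of 2.66 in TT1, 10.2 in NTT rep1 and 4.39 in NTT rep2, at percentiles 2.98, 92.8 and 69.0 of their libraries. The summits lay up to 432 bp upstream and within 39 bp of each other, so the position was shared while the rank was near the bottom in TT1 and above the middle in both NTT libraries. miR166 targets the HD-ZIP III genes that set the upper side of leaves. *MIR166a* (AT2G46685, chr2:19176108-19176277, plus strand) showed a fold enrichment of 2.79 in TT1, 4.97 in NTT rep1 and 3.16 in NTT rep2, with summits 229, 140 and 234 bp upstream. They were in the lower part of each list, at percentiles 5.58, 31.7 and 11.6.

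miR167 targets the auxin response factors *ARF6* and *ARF8*. *MIR167a* (AT3G22886, chr3:8108072-8108209, plus strand) showed a fold enrichment of 4.16 in TT1, 9.16 in NTT rep1 and 5.24 in NTT rep2, with summits 231, 301 and 252 bp upstream, and a further weaker peak at least 1000 bp upstream in TT1 and in NTT rep1. miR391 is related in sequence to miR390. *MIR391* (AT5G60408, chr5:24293093-24293298, plus strand) showed a fold enrichment of 4.57 in TT1, 7.70 in NTT rep1 and 4.66 in NTT rep2. Its summits lay 407, 336 and 316 bp upstream, and for TT1 the start of AT5G60400 was nearer.

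miR398 and miR408 belong to the response to low copper, with copper superoxide dismutases and laccases among their targets. *MIR408* (AT2G47015, chr2:19319814-19320031, plus strand) showed a fold enrichment of 4.34 in TT1, 5.90 in NTT rep1 and 3.93 in NTT rep2. The TT1 summit lay 382 bp upstream and the strongest NTT summits 810 and 805 bp upstream, inside AT2G47010, while a weaker peak of NTT rep2 with a fold enrichment of 3.51 lay 371 bp upstream, 11 bp from that of TT1. *MIR398b* (AT5G14545, chr5:4691022-4691137, plus strand) showed a fold enrichment of 4.37 in TT1, 5.79 in NTT rep1 and 3.12 in NTT rep2, with summits 577, 580 and 476 bp upstream. The start of AT5G14540 was nearer to its first pair of summits, at −522 bp for TT1 and −519 bp for NTT rep1, and *MIR398c* in the same region was bound in TT1 alone, with a fold enrichment of 4.62 and a start of AT5G14550 nearer. *MIR398a* had peaks in TT1 and NTT rep1 that lay −2 and 64 bp from the start of *NRP1*, so the 3 genes of the family stand in regions whose peaks were mostly closer to coding genes.

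4 genes were bound in both NTT libraries and not in TT1 (4.30%), against 3.47% of all nuclear genes. *MIR169a* (AT3G13405, chr3:4358994-4359219, minus strand) showed a fold enrichment of 12.4 in NTT rep1 and 4.73 in NTT rep2, with summits 137 and 153 bp upstream, and its rep1 peak stood at percentile 98.4, the highest of any member in that library. *MIR169b* (AT5G24825, chr5:8527469-8527649, plus strand) had a pair of peaks in both NTT libraries. The far peak showed a fold enrichment of 9.64 in rep1 and 5.07 in rep2, 1682 and 1706 bp upstream, and the near peak had 8.81 in rep1 and 4.15 in rep2, 215 and 211 bp upstream. The summits of the 2 NTT libraries were 16 bp apart at *MIR169a* and 4 bp apart at the near peak of *MIR169b*. The nearest upstream TT1 peak to *MIR169a* was outside the window, at −2224 bp, with a fold enrichment of 3.38. *MIR393b*, a source of the microRNA that targets the auxin receptors *TIR1* and *AFB2*, showed a fold enrichment of 4.78 in NTT rep1 and 4.14 in NTT rep2, with summits 1117 and 1119 bp upstream. *MIR160c*, whose microRNA targets *ARF10*, showed a fold enrichment of 5.38 in NTT rep1 and 3.61 in NTT rep2, but both summits lay inside AT5G46850, 47 and 28 bp past its start. Whether TT1 lacked binding at these genes was not tested, since its list comes from a single library.

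5 genes were bound in TT1 alone (5.38%), against 4.54% of all nuclear genes. Besides *MIR159c* and *MIR398c*, they were *MIR172b*, whose microRNA targets *AP2* and its relatives, with a fold enrichment of 3.94 at a summit 224 bp inside the primary transcript, *MIR164a*, of the family that targets *CUC1* and *CUC2*, with 3.26 at 1621 bp upstream, and *MIR157d*, a further source of an *SPL*-targeting microRNA, with 3.17 at 1962 bp upstream. Apart from *MIR398c*, these peaks had fold enrichments below the median of the TT1 list. 9 genes were bound in TT1 and NTT rep1 but not NTT rep2 (9.68%), against 10.3% of nuclear genes, with fold enrichments from 2.82 to 4.91 in TT1 and from 4.11 to 7.87 in NTT rep1, namely *MIR157a*, *MIR164b*, *MIR166b*, *MIR166d*, *MIR172c*, *MIR319c*, *MIR393a*, *MIR395c* and *MIR398a*. *MIR166g* was bound in TT1 and NTT rep2 but not NTT rep1, a pattern found at 0.802% of nuclear genes, with fold enrichments of 3.95 and 3.05 and summits 28 bp apart. 6 genes were bound in NTT rep1 alone (6.45%), against 7.06% of nuclear genes, with fold enrichments from 3.47 to 5.66, namely *MIR156d*, *MIR160a*, *MIR164c*, *MIR166e*, *MIR167c* and *MIR396b*, and *MIR156h* was bound in NTT rep2 alone with 3.86, a pattern found at 1.23% of nuclear genes. Of the 29 genes of NTT rep1, 15 had no peak in NTT rep2 (51.7%), against 45.9% of all nuclear genes bound in NTT rep1. Besides *MIR398a* and *MIR398c*, a coding start was nearer to the strongest summits of *MIR157d* (AT1G48745), *MIR319c* (AT2G40800) and *MIR166d* (*RUG1*). The same held at *MIR156d* (AT5G10946), at *MIR156h* (AT5G55840) and, in TT1 but not NTT rep1, at *MIR172c* (*MYB65*).

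**Figure D3:**
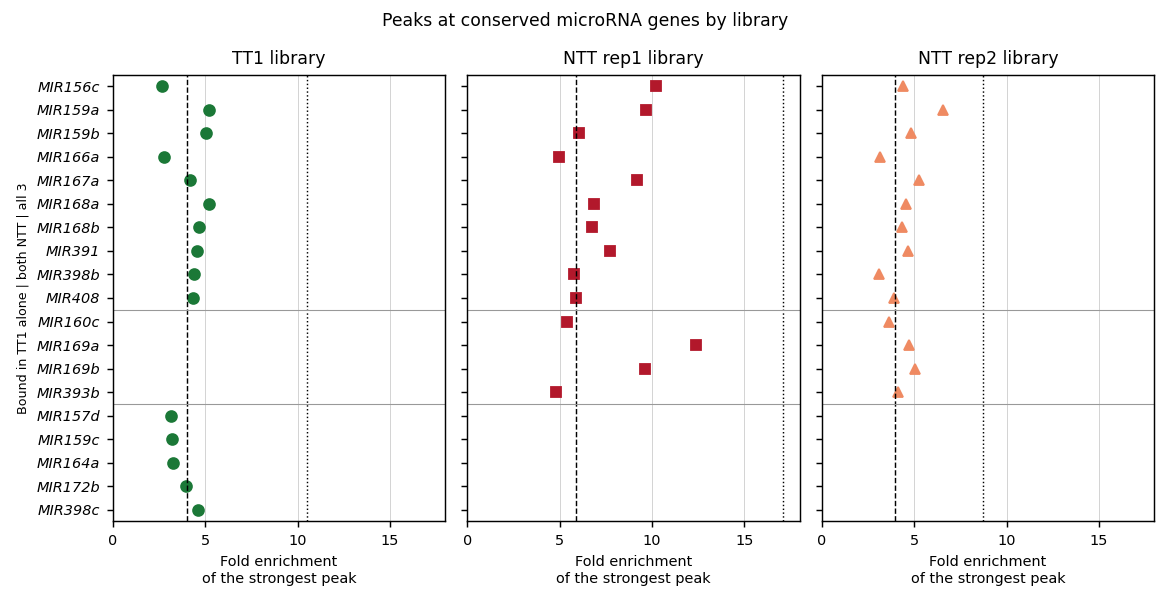
Fold enrichment of the strongest peak (horizontal axes) at the genes bound in all 3 libraries (top), in both NTT libraries without TT1 (middle) and in TT1 alone (bottom), by library, with the median (dashed) and the highest value (dotted) of each peak list. *MIR156c* stands at 2.66 in TT1 and at 10.2 in NTT rep1, and no member reaches the highest value of a list.

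The peaks of the members were of middling rank. The strongest peak of a bound gene had a median fold enrichment of 3.95 in TT1, against 4.22 over all bound nuclear genes, 5.79 in NTT rep1, against 6.39, and 4.37 in NTT rep2, against 3.99. The median percentile within the library was 48.5 for TT1, against 56.9 over all bound genes, 48.3 for NTT rep1, against 58.4, and 68.3 for NTT rep2, against 52.1. The order was thus lower than that of all bound genes in the larger lists and higher in the smallest. Peaks above percentile 90 of a list were found at 0 of 25 bound members in TT1, 3 of 29 in NTT rep1 and 1 of 16 in NTT rep2. No share over all bound genes is given for this cutoff, so these counts are not set against a background. The highest TT1 value at a member was 5.23, at *MIR168a*, in a list that reached 10.5.

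**Figure D4:**
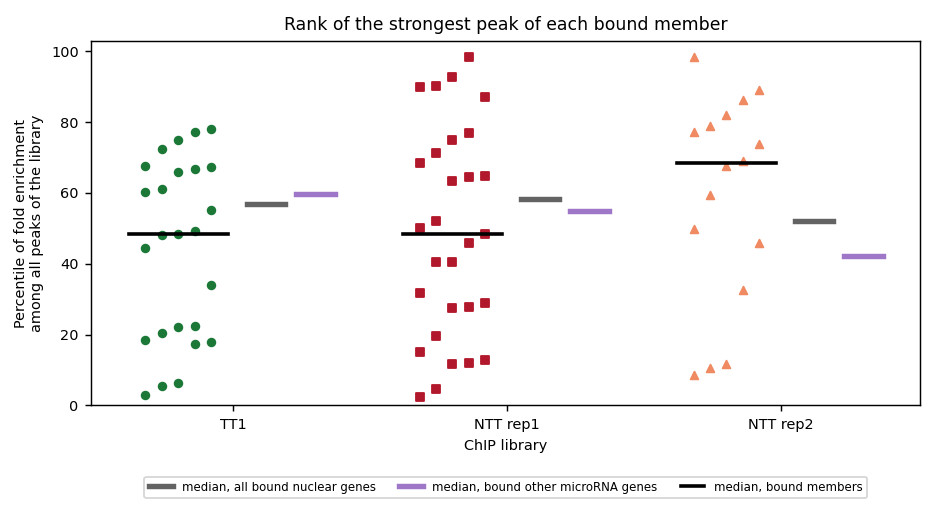
Percentile of fold enrichment among all peaks of the same library (vertical axis) for the strongest peak of each bound member (points), with the medians of the members and of 2 wider groups of genes (bars). The medians of the members are 48.5 in TT1, 48.3 in NTT rep1 and 68.3 in NTT rep2.

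Fewer summits at the members than at protein-coding genes lay near the annotated 5′ end, a difference that was not tested. Of the bound members, 3 of 25 in TT1, 7 of 29 in NTT rep1 and 4 of 16 in NTT rep2 had the strongest summit within 250 bp of the stem-loop, against 37.9%, 41.2% and 47.2% of bound protein-coding genes and their start. Within 500 bp the shares were 40% in TT1, 37.9% in NTT rep1 and 56.2% in NTT rep2, against 50.2%, 54.8% and 59%. The difference thus depended on the distance chosen and was small in NTT rep2 at 500 bp. For 18 of the 93 genes the annotation gives the start of the primary transcript, from −51 to −615 bp of the stem-loop with a median of −255.5 bp. Measured from that start, the strongest summit was within 250 bp in 6 of 7 bound genes in TT1, 5 of 8 in NTT rep1 and 4 of 4 in NTT rep2, whereas from the stem-loop it was within 250 bp in 2, 2 and 1 of them. At *MIR166b* the summits lay −4 bp from the transcript start in TT1 and 20 bp in NTT rep1. *MIR156c* had its 3 summits −41, −69 and −80 bp from the transcript start in TT1, NTT rep1 and NTT rep2, and *MIR159a* had its strongest at −159, −133 and −120 bp. These 2 genes, with *MIR166a* and *MIR167a*, are the 4 genes of NTT rep2 with a known start.

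Where the same gene was bound in a pair of libraries, the nearest summits were a median of 19.5 bp apart between the NTT libraries, 35 bp between TT1 and NTT rep1 and 39 bp between TT1 and NTT rep2. They were within 100 bp in 13 of 14, 14 of 19 and 8 of 11 genes. The exceptions for TT1 and NTT rep1 were *MIR168a*, *MIR168b*, *MIR319c*, *MIR393a* and *MIR408*, with summits from 106 to 445 bp apart. The nearest pair was not always that of the strongest peaks, as at *MIR408* between TT1 and NTT rep2. These distances are not given over all genes bound in the same libraries, so they are not shown to be particular to the members. A coding start was nearer to the strongest summit than the stem-loop was in 8 of 25 genes in TT1, 6 of 29 in NTT rep1 and 2 of 16 in NTT rep2. Counting only genes with a summit that had no nearer coding start, 17 were bound in TT1, 23 in NTT rep1, 14 in NTT rep2 and 8 in all 3, the last without *MIR391* and *MIR398b*. No share over all nuclear genes is given for either of these counts, so neither is set against a background. Which gene a peak acts on was not tested. Of the values at the edge of the window, *MIR157d* was just inside at 1962 bp. *MIR169h* was just outside in NTT rep1, at −2011 bp with a fold enrichment of 8.12, and in TT1, at −2077 bp with 3.49. *MIR403*, which had no peak in the window, had summits just outside it at −2044 bp in TT1 and −2056 bp in NTT rep1, with fold enrichments of 4.05 and 8.32. Also of families with no peak in the window, *MIR171b* had a summit at −2058 bp in NTT rep1, with a fold enrichment of 3.58. *MIR397a* had one at −2380 bp in TT1, with 4.48.

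**Figure D5:**
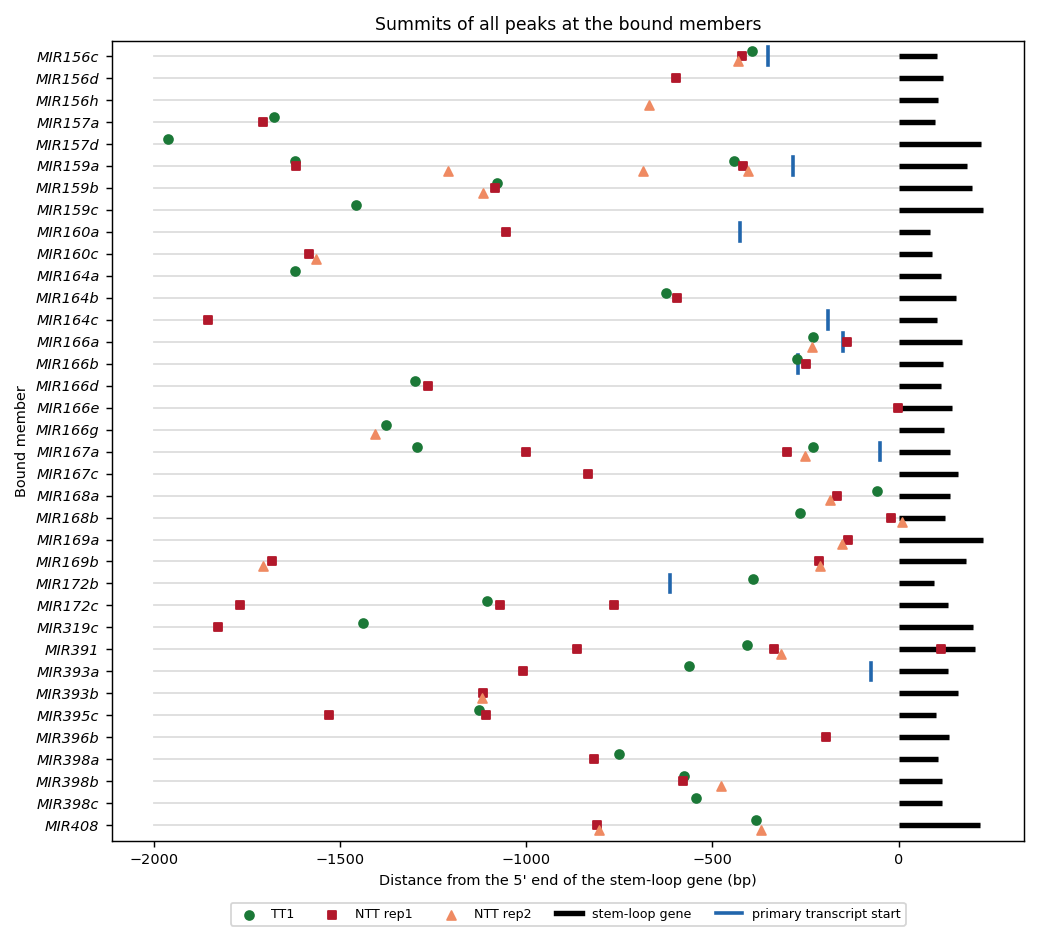
Position of every peak summit at the 36 bound genes relative to the 5′ end of the stem-loop gene (horizontal axis, bp), by library, with the stem-loop gene in black and the annotated start of the primary transcript, where there is one, in blue. Summits of different libraries mostly stand together, as at *MIR156c*, where they span 39 bp, and lie apart at *MIR393a* and *MIR319c*.

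Among the paralogs whose stretches are printed above, the longest identical run within 100 bp of the strongest summits was 12 bp for *MIR159a* and *MIR159b*, 17 bp for *MIR166a* and *MIR166b*, and 21 bp for *MIR393a* and *MIR393b*. *MIR168a* and *MIR168b* shared 29 bp, which include their mature microRNA. Over 35 pairs of bound genes within a family the median of the longest run was 9 bp, the same as over 595 pairs from different families. Runs of at least 15 bp were found in 4 of the 35 and 6 of the 595 pairs, and they held a GAGA repeat in 1 of the 4 and 5 of the 6, up to 23 bp between *MIR166b* and *MIR319c*. The run shared by the *MIR393* genes lay from 551 to 531 bp upstream at *MIR393a*, under the TT1 peak but not that of NTT rep1, and from 1148 to 1128 bp upstream at *MIR393b*, under the peaks of both NTT libraries.

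A GAGA repeat was present within 100 bp of the summit in 8 of 27 member peaks in TT1 (29.6%), against 16.0% of all TT1 peaks, in 10 of 37 in NTT rep1 (27.0%), against 21.5%, and in 5 of 20 in NTT rep2 (25.0%), against 26.1%. Among genes bound in 2 or more libraries, it was found at all summits of *MIR156c*, *MIR166a*, *MIR166b*, *MIR319c*, *MIR393b* and *MIR398b*. A W-box was present in 6 of 27 member peaks in TT1 (22.2%), against 31.8% of all peaks, and in 3 of 37 in NTT rep1 (8.11%), against 28.1%, while none of the 20 member peaks of NTT rep2 had one, against 27.2% of its peaks. The ABRE core was in 5 of 27 member peaks in TT1, 5 of 37 in NTT rep1 and 4 of 20 in NTT rep2, against 29.0%, 25.5% and 35.1% of all peaks. The G-box was at summits of *MIR168a* in both NTT libraries, of *MIR168b* in all 3, of *MIR408* in TT1 and NTT rep2 and of *MIR156h* in NTT rep2. A match describes the letters in these windows and not a site in use.

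The machinery that makes and uses microRNAs was examined by the same rule, with a list of 22 genes of biogenesis and action. The list also held genes of the trans-acting siRNA pathway, such as *RDR6*. *DCL1*, *AGO1* and *AGO2* were counted both here and among the targets below. TT1 bound 10 of the 22 genes (45.5%), NTT rep1 bound 13 (59.1%), NTT rep2 bound 8 (36.4%) and all 3 libraries 6 (27.3%), against 38.3%, 44.7%, 26.8% and 20.2% of protein-coding genes. The 6 were *HESO1*, which uridylates unprotected microRNAs, *RDR6*, which makes double-stranded RNA for trans-acting siRNAs, *SE*, a partner of DCL1, *AGO7*, the carrier of miR390, *AGO1*, and *CDC5*, which promotes *MIR* transcription. *HESO1* showed a fold enrichment of 5.16 in TT1, 11.2 in NTT rep1 and 4.61 in NTT rep2. *AGO1* had a weaker peak in TT1 at 2.34, with 7.19 in NTT rep1 and 3.30 in NTT rep2, so both *MIR168* genes and their target were bound in all 3 libraries.

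Of 79 protein-coding targets of the families, 49 were bound in TT1 (62.0%), 59 in NTT rep1 (74.7%), 35 in NTT rep2 (44.3%) and 29 in all 3 (36.7%), against 38.3%, 44.7%, 26.8% and 20.2% of protein-coding genes. Some target summits lay far inside the gene, as at *LAC4*, 3119 bp past the 5′ end in TT1. No count by the 2 kb upstream alone is given for the targets or for the genes of biogenesis and action. *TAS3*, the non-coding target of miR390, had no peak. The best-ranked were *SCL27*, a target of miR171, with fold enrichments of 6.21 in TT1, 12.7 in NTT rep1 and 6.45 in NTT rep2, and then *TOE3*, *NFYA1*, *SMZ*, *GRF1* and *AP2*. *TOE3*, a relative of *AP2*, had 6.71 in TT1, 11.9 in NTT rep1 and 5.74 in NTT rep2. For miR172, 5 of 6 targets were bound in all 3 libraries, and of its 5 genes 2 were bound in any library and none in all 3. For miR396, 5 of 7 targets were bound in all 3, and 1 of its 2 genes was bound in any library and none in all 3. For miR169, 4 of 7 targets were bound in all 3, and 2 of its 14 genes in any library. These families had the most targets bound in all 3 libraries. Fewer were in the others, as 3 of 4 for miR393, 1 of 5 for miR164 and for miR319, and 0 of 2 for miR167 and for miR398. The 3 targets of miR159, *MYB33*, *MYB65* and *MYB101*, were bound in TT1 and NTT rep1 and not in NTT rep2, and 2 of its 3 genes in all 3. The TT1 peak of *MYB65*, with a fold enrichment of 3.15, was also counted for *MIR172c*, and the *MYB65* start was nearer to it. Whether the binding of targets went with that of the microRNA genes was not tested. The families without a bound member included *MIR171* and *MIR394*, for which *SCL27* and *LCR* were bound in all 3 libraries.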

How the data were processed

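ChIP and input libraries of both lines were sequenced as single-end reads of 50 bp. According to the methods and the submitters' processing notes, the authors mapped reads with BWA to TAIR10, kept uniquely mapped reads with SAMtools, discarded duplicates by Picard and, with MACS2 2.1.2, called peaks over input in each ChIP library. Fold enrichment is the ratio deposited by the authors. The −log10 p and −log10 q values are those deposited by the authors, and the deposited score is 10 times −log10 q, rounded down, in all peaks but 1 of NTT rep2. All deposited peaks had a −log10 q of at least 9 and were kept. The uniquely mapped filter removes reads from repeated sequence, which can lower the signal at paralogs. Depth is not given in the sources used here.

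Genes, stem-loops, transcript starts noted for some microRNAs and sequences were taken from the RefSeq TAIR10.1 assembly, whose 5 nuclear chromosomes hold every peak. Positions are 1-based. Python 3.11.15, numpy 2.4.6, pandas 2.3.3 and matplotlib 3.10.9 were used, and the window rule was tested on simulated peaks. The genes described are those bound in all 3 libraries, in both NTT libraries without TT1 and in TT1 alone, the families with no bound member, and the 6 best-ranked genes of each pathway list. The members, lists and words searched were chosen with earlier results of these data known, and the shared runs of paralogs after the summits had been seen. No test was made over the members. Counts of members bound by the main rule, per library or combination of libraries, are set beside the same rule over all genes. Alternatives were a stricter threshold, equal list sizes, other windows, peak overlap, and agreement of summits between libraries.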

Additional observations from a re-analysis of the deposited data

How the results depend on the processing

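Of 54 alternative values for 6 counts of bound members, 31 stayed within 1.5 times the main count. With the same number of peaks per library, 7447, the counts were 14 in TT1, 13 in NTT rep1, 9 in both NTT libraries, 6 in all 3 and 4 in all 3 with no nearer coding start. With 1 kb upstream and the gene body, TT1 had 15 (16.1%), against 27.0% of all nuclear genes, and NTT rep1 had 19 (20.4%), against 32.1%. With 500 bp and the gene body, TT1 had 10 (10.8%), against 22.5%, and NTT rep1 had 12 (12.9%), against 27.7%, with 9 in both NTT libraries. NTT rep2 had 12 (12.9%) with 1 kb, against 18.6%, and 11 (11.8%) with 500 bp, against 16.1%. A −log10 q of at least 20 left 6 in all 3 libraries and 5 with no nearer coding start, and summits within 100 bp between libraries left 6 and 5. For equal list sizes, the stricter threshold and summit agreement, the share over all genes is not given here. Leaving out an NTT library gave 16 to 29 members for NTT binding, 11 to 19 for all libraries and 9 to 13 with no nearer coding start, the higher values without NTT rep2. The 16 and 29 are the counts of NTT rep2 and NTT rep1 alone, against 22.5% and 37.8% of all nuclear genes. For the other counts without an NTT library the share over all genes is not given here. The 500 bp upstream with the gene body left out, a count chosen after seeing the data, gave 10 in TT1 (10.8%), against 9.87% of all nuclear genes, 12 in NTT rep1 (12.9%), against 10.7%, 10 in NTT rep2 (10.8%), against 6.19%, 8 in both NTT libraries, 6 in all 3 and 5 in all 3 with no nearer coding start. No paired analysis was possible because the inputs have no peak list here and TT1 has a single ChIP library. Depth is unknown, the stem-loop is not the transcript start for most members, and a peak does not show which neighbouring gene it acts on.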
